A study of Mus musculus with 8 samples.

Results

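The NADPH oxidase genes described here are *Nox4* and the genes for subunits and partners of the NADPH oxidase complexes, namely *Cybb*, *Cyba*, *Ncf1*, *Ncf4*, *Rac1*, *Rac2* and *Poldip2*. They were chosen by name, with earlier results of these data known. All 8 were found among the 32390 rows of a count table from gastrocnemius, a calf muscle. None of the 8 names was repeated in the table. The samples were 4 control mice with a floxed *Nox4* gene (*Nox4* fl/fl, *Nox4* flanked by sites for Cre recombinase) and 4 MckCre:*Nox4* fl/fl mice, called NOX4-deficient here, all 21 months of age. Both groups carry the floxed alleles, and only the second carries Cre. The Mck promoter drives Cre mainly in skeletal muscle fibers and less in heart, so that other cells in the muscle keep an intact *Nox4*. The study's methods and legends describe male C57BL/6 mice on standard chow. Each library came from a different mouse as far as the labels and legends tell, and the labels place all 8 in batch 1.

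NADPH oxidases pass electrons from NADPH across a membrane to oxygen. NOX2, the oxidase of phagocytes, is built from a membrane core of CYBB (gp91phox) and CYBA (p22phox), to which the cytosolic proteins NCF1 (p47phox) and NCF4 (p40phox), among others, and a RAC GTPase are recruited on activation. NOX4 also pairs with CYBA but needs none of the cytosolic proteins, releases mainly hydrogen peroxide, and is active whenever it is present, so that its amount largely sets its output. In muscle, NOX4 and NOX2 are known as sources of the oxidants made during contraction. POLDIP2 binds CYBA and is known to raise NOX4 activity. RAC1 is the widespread RAC and RAC2 the RAC of blood cells.

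The libraries held between 16350548 and 19804661 counts on genes. Levels are given as CPM (counts scaled to a common library size by the TMM method of edgeR), with SDs over 4 mice. Of all rows, 12725 had enough counts to be tested with edgeR's quasi-likelihood test, and a gene was called at a Benjamini-Hochberg adjusted p below 0.05 together with a log2 fold change beyond 0.5 in either direction. Fold changes are NOX4-deficient over control. On the second principal component of the libraries, which took 19.7% of the variance, replicates 1 and 3 lay above replicates 2 and 4 in both genotypes, and the labels do not say what the numbers stand for. Markers of muscle fibers were high in all 8 libraries, with a summed level of 129650 to 162223 CPM over 11 genes, and none of these genes was called.

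No oxidase gene passed the test between the genotypes. Of the 8 genes, 7 were tested and 0 were called, where 6.16% of all rows tested were called. *Ncf4* had too few counts to be tested. The log2 fold change was negative in 5 of the 7 and positive in 2, with a median of -0.25 against 0.01 over all rows tested. An unadjusted p under 0.05 was found for 2 of the 7, *Nox4* and *Rac1*, and for 23.2% of all rows tested. By DESeq2 in R and by pydeseq2, none of the 7 was called either, and *Ncf4* received no adjusted p. *Rac1* was the only member whose groups did not overlap, being lower in all 4 NOX4-deficient libraries, where 8.97% of all rows were separated in that direction and 7.2% in the other.

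**Figure D1:**
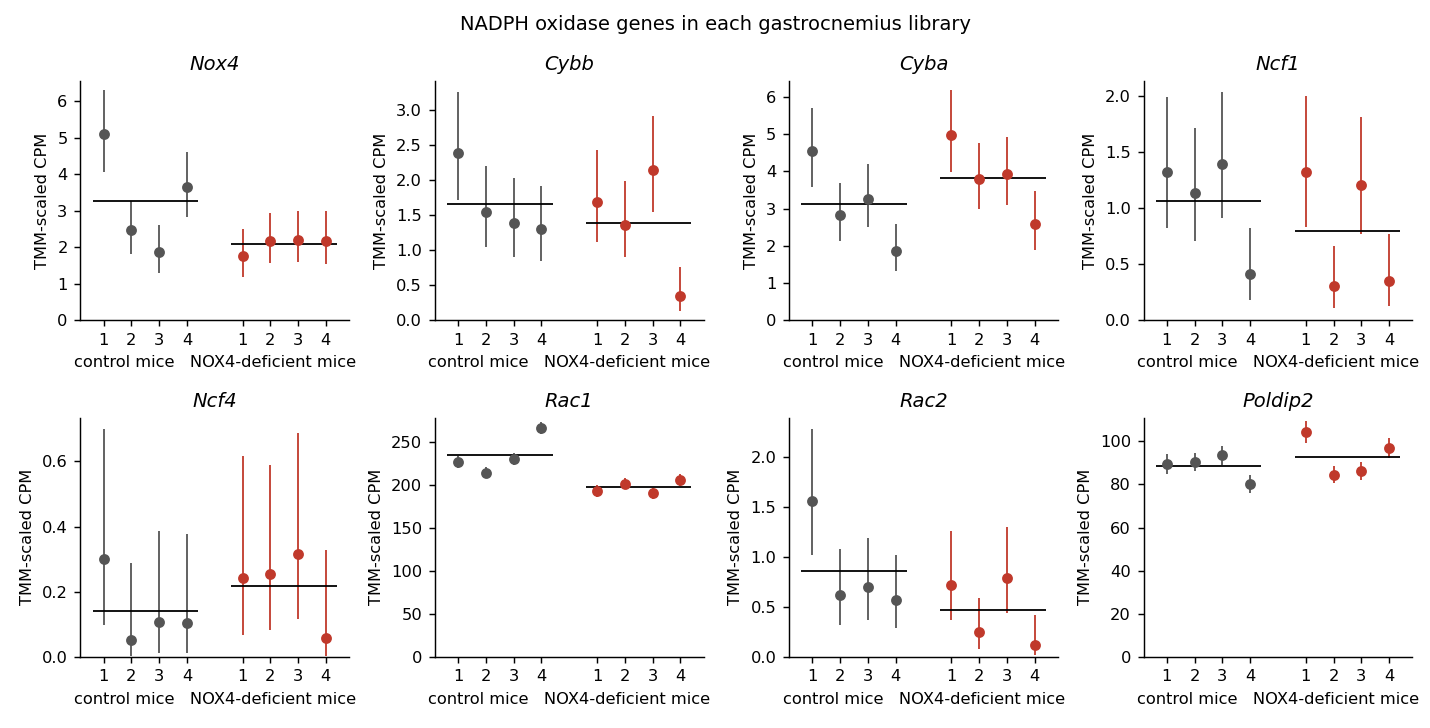
TMM-scaled CPM (vertical axes, from 0) of each of the 8 oxidase genes in each mouse (replicates 1 to 4, grey for control and red for NOX4-deficient). Bars on the points are 95% counting intervals and horizontal lines are group means. The *Nox4* points of the NOX4-deficient mice lie close together at 1.74 to 2.21 CPM while those of the control mice spread from 1.87 to 5.09 CPM, and only *Rac1* has groups that do not overlap.

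*Nox4*, the catalytic gene that Cre deletes in these mice, was measured at 5.09, 2.47, 1.87 and 3.64 CPM in control replicates 1 to 4. In NOX4-deficient replicates 1 to 4 it was at 1.74, 2.17, 2.21 and 2.17 CPM. Control replicates 1 and 4 were high, control replicate 3 was inside the range of the NOX4-deficient mice, and only NOX4-deficient replicate 1 was below every control library. The means were 3.27 ± 1.42 CPM (SD, n = 4) and 2.07 ± 0.220 CPM (SD, n = 4), a difference of -1.20 CPM with p = 0.2 in a two-sided exact permutation test, whose 70 splits allow a p of 0.0286 at the least. The edgeR fit gave a log2 fold change of -0.65 (adjusted p = 0.207, standard error 0.29), and its 95% interval placed the level in NOX4-deficient muscle at 41.2% to 99.1% of control. Each NOX4-deficient library held 29 to 43 counts of *Nox4*. Which exons are floxed was not used here. The table gives 1 count per gene, so that reads from exons outside the deleted part are included, and reads from fibers and from other cells cannot be told apart. *Nox4* therefore does not check the genotype labels of the single libraries.

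The control mice differed from each other in *Nox4* by more than counting alone gives. The highest control library was at 2.72 times the lowest, and the variance of *Nox4* over the controls was 11.1 times the variance expected from counting. Among the NOX4-deficient mice the highest library was at 1.27 times the lowest, and the variance was 0.398 times that from counting. The difference in spread between the genotypes was not tested. The size of the *Nox4* difference rested on single mice. Without control replicate 1 the difference of mean CPM was -0.587, and without control replicate 3 it was -1.66, with an exact permutation p of 0.0286 that is the smallest for 3 mice against 4.

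*Cybb*, the catalytic gene of NOX2, showed no difference beyond the spread between mice. It was at 2.40, 1.54, 1.39 and 1.30 CPM in the controls and at 1.68, 1.37, 2.15 and 0.352 CPM in NOX4-deficient replicates 1 to 4. The groups overlapped, and NOX4-deficient replicate 4, with 6 counts, stood below all others. The log2 fold change was -0.24 (95% interval -1.14 to 0.66, edgeR adjusted p = 0.779), and without that mouse it was 0.0867. The interval leaves room for a fall or a rise of *Cybb* of sizeable extent, so that an unchanged NOX2 transcript was not shown.

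*Cyba*, the membrane partner that NOX4 and NOX2 share, had the largest positive value among the tested members. It was at 4.55, 2.83, 3.26 and 1.87 CPM in the controls and at 4.99, 3.79, 3.94 and 2.58 CPM in the NOX4-deficient mice. The ranges overlapped widely, and replicate 4 was lowest in both genotypes. The log2 fold change was 0.30 (95% interval -0.30 to 0.89, edgeR adjusted p = 0.569).

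The cytosolic genes of the phagocyte oxidase were scarce. *Ncf1*, which carries the phosphorylation sites that start assembly, was at 1.32, 1.13, 1.39 and 0.416 CPM in the controls and at 1.32, 0.303, 1.21 and 0.352 CPM in the NOX4-deficient mice. NOX4-deficient replicates 2 and 4 and control replicate 4 were low and the other 5 libraries were near each other, so that the low mice came from both genotypes. The log2 fold change was -0.42 (95% interval -1.53 to 0.69, edgeR adjusted p = 0.675). In the annotation, 408 of the 3663 exon bases of *Ncf1* (11.1%) overlap *Gtf2ird2* on the opposite strand. Because the libraries are unstranded, reads there cannot be assigned to 1 of these genes. *Gtf2ird2* itself had a log2 fold change of -0.09 (edgeR adjusted p = 0.746).

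*Ncf4*, whose product binds a membrane lipid of the phagosome, had 5, 1, 2 and 2 counts in the controls and 4, 5, 6 and 1 counts in the NOX4-deficient mice. With such counts a difference was not detectable at this depth. In a fit without the filter on low counts the log2 fold change was 0.64 (95% interval -1.04 to 2.31, edgeR adjusted p = 0.706).

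The 2 RAC GTPases lay far apart in level. *Rac1* was at 227, 214, 230 and 266 CPM in the controls and at 193, 201, 190 and 206 CPM in the NOX4-deficient mice. Every NOX4-deficient mouse was below every control mouse, and control replicate 4 stood above the others. The controls averaged 234 ± 22.4 CPM and the NOX4-deficient mice 198 ± 7.21 CPM (SD, n = 4 each), a log2 fold change of -0.25 (standard error 0.10, 95% interval -0.46 to -0.04, edgeR adjusted p = 0.148). It did not pass the test. In the annotation, 2309 of the 4496 exon bases of *Rac1* (51.4%) are shared with *Daglb* on the opposite strand. Because the libraries are unstranded, reads there cannot be assigned to 1 of these genes. The level of *Rac1* depends on how such reads were counted, which is not given. *Daglb* was at a much lower level per length, 2.83 ± 0.266 CPM per kb in control muscle against 56.4 ± 5.39 for *Rac1*, and its log2 fold change was -0.02 (edgeR adjusted p = 0.946).

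*Rac2* was at 1.56, 0.618, 0.696 and 0.572 CPM in the controls and at 0.722, 0.253, 0.788 and 0.117 CPM in the NOX4-deficient mice. Control replicate 1 was highest, NOX4-deficient replicates 2 and 4 were lowest, and the groups overlapped. The log2 fold change was -0.85, the largest negative value among the members, but its 95% interval ran from -2.02 to 0.32 (edgeR adjusted p = 0.380). Over all libraries there were 330 counts of *Rac1* for each count of *Rac2*.

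With such a ratio, a small share of misplaced *Rac1* reads would weigh on *Rac2*, so their sequences were compared. The coding sequences of the longest protein-coding transcripts (GENCODE M21, built on GRCm38) are each 579 bases long and identical at 446 of them (77%). The stretch shown, coding bases 361 to 420, is among the most alike, with 3 differences given in capitals.

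Rac1: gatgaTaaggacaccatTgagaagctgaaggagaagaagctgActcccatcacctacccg

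Rac2: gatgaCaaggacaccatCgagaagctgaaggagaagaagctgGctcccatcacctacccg

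The longest identical run between the 2 transcripts is 29 bases, and any 150 coding bases, the length of a read, differ at 21 or more positions. How the authors' counting treated reads that match in several places is not given in the sources used here.

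*Poldip2*, the partner that raises NOX4 activity, showed the smallest fold change of the members tested. It was at 89.5, 90.2, 93.5 and 80.1 CPM in the controls and at 104, 84.5, 86.0 and 96.9 CPM in the NOX4-deficient mice. The groups overlapped, with means of 88.4 ± 5.76 CPM for the controls and 92.9 ± 9.35 CPM for the NOX4-deficient mice (SD, n = 4 each). The log2 fold change was 0.07 (95% interval -0.15 to 0.29, edgeR adjusted p = 0.720).

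**Figure D2:**
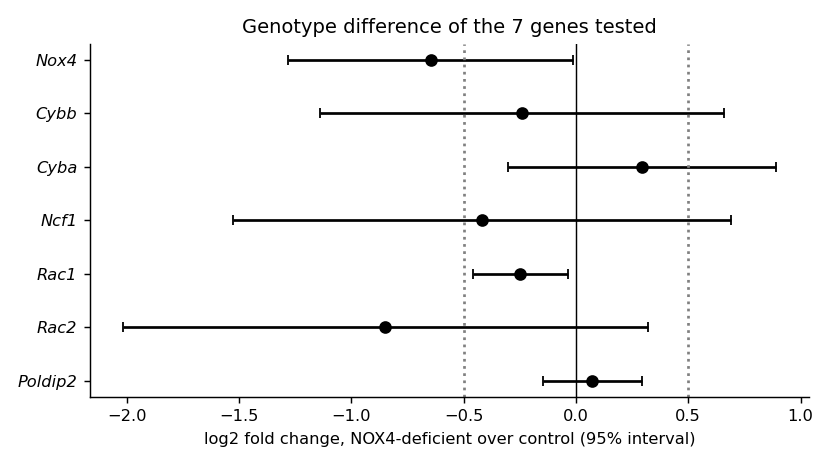
Log2 fold change (horizontal axis, NOX4-deficient over control) of the 7 oxidase genes tested, with 95% intervals from the edgeR fit and dotted lines at the fold minimum of 0.5 for a call. The intervals of *Nox4* (-1.28 to -0.01) and *Rac1* (-0.46 to -0.04) lie below 0, neither passed the adjusted test, and those of *Poldip2* and *Rac1* are the narrowest.

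Levels were compared between genes as CPM per kb of the longest protein-coding transcript. In control muscle the order was *Rac1* (56.4 ± 5.39 CPM per kb), *Poldip2* (43.0 ± 2.80), *Cyba* (4.21 ± 1.5), *Nox4* (0.871 ± 0.379), *Ncf1* (0.369 ± 0.155), *Cybb* (0.349 ± 0.106), *Rac2* (0.283 ± 0.154) and *Ncf4* (0.0960 ± 0.0745; SD, n = 4 for each). In control mice *Rac1*, *Poldip2*, *Cyba* and *Nox4* each lay above the next gene in that order without overlap. However, *Nox4* (from 0.499 CPM per kb) overlapped *Cybb* (up to 0.504) and *Rac2* (up to 0.513). *Ncf1*, *Cybb* and *Rac2* overlapped each other, and *Ncf4* overlapped *Ncf1* and *Rac2*. In NOX4-deficient mice *Rac1* (47.5 ± 1.73 CPM per kb) and *Poldip2* (45.2 ± 4.55) also overlapped. The membrane partner *Cyba* exceeded both catalytic genes in all 8 libraries. It was at 2.59 to 8.79 times *Nox4* in control mice and at 6.0 to 14.4 times *Nox4* in NOX4-deficient mice, per kb. With the length over all annotated exons, these ranges were 4.19 to 14.2 and 9.7 to 23.3.

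Within each mouse *Nox4* was above *Cybb* per kb in 8 of 8 libraries. The ratio was 2.69, 2.03, 1.70 and 3.55 in the controls and 1.31, 2.02, 1.30 and 7.81 in the NOX4-deficient mice. The highest ratio was that of NOX4-deficient replicate 4, where *Cybb* had its 6 counts. The order of these 2 genes depends on the length used. With all annotated exons, which include retained introns of *Nox4*, the median ratio was 1.09 in place of 2.02, and *Nox4* was above *Cybb* in 5 of 8 libraries.

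**Figure D3:**
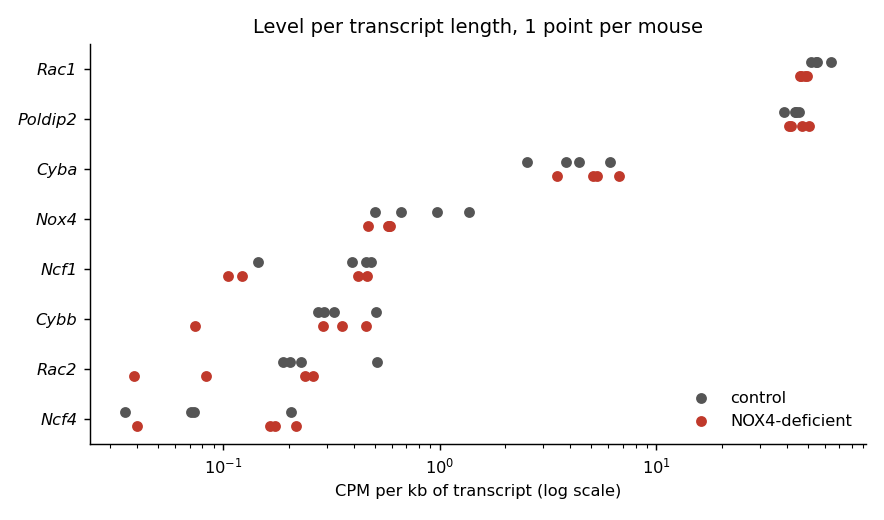
CPM per kb of the longest protein-coding transcript (horizontal log axis) of the 8 oxidase genes, 1 point per mouse, grey for control and red for NOX4-deficient, ordered by the control mean. *Rac1* and *Poldip2* lie between 39.0 and 64.1 CPM per kb, *Cyba* between 2.52 and 6.71, and the other genes at or under 1.36.

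Whole muscle holds blood, immune, vascular and connective tissue cells besides fibers, and in bulk RNA fewer cells of a type and less RNA per cell cannot be told apart. The summed level of 18 leukocyte markers was 137, 72.9, 64.6 and 52.4 CPM in the controls and 69.5, 48.4, 75.7 and 26.6 CPM in the NOX4-deficient mice. Of these markers 17 were tested, 0 were called, and 17 had a negative value, the median being -0.54 on the log2 scale. With the replicate number as a block, 2 of them were called lower, *Lyz2*, for lysozyme (edgeR adjusted p = 0.0336), and *Cd14*, for a monocyte receptor (edgeR adjusted p = 0.0412), and with a term that split odd from even numbers *Cd14* alone was (edgeR adjusted p = 0.0273). The defining markers *Ptprc*, the pan-leukocyte CD45 gene, and *Adgre1*, the macrophage F4/80 gene, fell short of the threshold, at means of 2.32 and 1.97 CPM in the controls and 1.23 and 1.0 CPM in the NOX4-deficient mice, with adjusted p of 0.123 and 0.162 in the edgeR fit. Among the 17 tested, 3 had an unadjusted edgeR p under 0.05, namely *Cd14*, *Ptprc* and *Adgre1*. Over all rows tested that share was 23.2%.

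*Cybb* and *Rac2* followed the summed leukocyte markers from mouse to mouse. In that unweighted sum *Lyz2* alone had means of 28.7 of 81.8 CPM in control and 17.7 of 55.1 CPM in NOX4-deficient muscle. Over the 8 libraries Pearson's r of *Rac2* with the summed leukocyte level was 0.978 (exact permutation p = 2.98e-04, Benjamini-Hochberg adjusted p = 0.00238 over 8 relations) and Spearman's rho was 0.929 (exact permutation p = 0.00223, adjusted p = 0.00893). For *Cybb*, r was 0.875 (exact permutation p = 0.0102, adjusted p = 0.0409) and rho was 0.952 (exact permutation p = 0.00114, adjusted p = 0.00893). Control replicate 1 and NOX4-deficient replicate 4 were farthest from the median of the marker sum, and without them r was 0.832 for *Rac2* and 0.761 for *Cybb* over 6 libraries. The call for *Rac2* held with each library left out in turn, and that for *Cybb* was lost without control replicate 2 or 4 or NOX4-deficient replicate 1, 2 or 3, where r was 0.873 to 0.924 (exact permutation, adjusted p of up to 0.0683). On deviations from the mean of each genotype, r was 0.973 for *Rac2* (exact permutation, adjusted p = 0.0278) and 0.886 for *Cybb* (exact permutation, adjusted p = 0.0139). These points share the library scaling. The part of these cells in the genotype values of *Cybb* and *Rac2* was not tested.

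The other leukocyte-linked members did not pass, although *Ncf1* did on the log2 scale (r = 0.761) and *Cyba* on deviations from the mean of each genotype (r = 0.872). For *Ncf1*, r was 0.675 (exact permutation p = 0.0298, adjusted p = 0.0794) and rho was 0.595 (exact permutation p = 0.132, adjusted p = 0.265), and r was 0.873 without the same 2 libraries. For *Cyba*, r was 0.571 (exact permutation p = 0.131, adjusted p = 0.210) and rho was 0.595 (exact permutation p = 0.132, adjusted p = 0.265), with r = 0.364 without the 2 libraries. For *Ncf4*, r was 0.561 (exact permutation p = 0.127, adjusted p = 0.210) and rho was 0.476 (exact permutation p = 0.243, adjusted p = 0.389), with r = 0.0824 without them. *Cybb*, *Cyba*, *Ncf1*, *Ncf4* and *Rac2* were also each higher on average in the odd-numbered than in the even-numbered replicates of both genotypes. For example, *Ncf1* was at 1.35 against 0.774 CPM in control and at 1.27 against 0.328 CPM in NOX4-deficient muscle. *Poldip2* was also higher, at 91.5 against 85.2 CPM in control and 95.1 against 90.7 CPM in NOX4-deficient muscle. *Rac1* was lower in both genotypes, and *Nox4* in NOX4-deficient mice only. In control the leukocyte sum was 137 and 64.6 CPM in odd against 72.9 and 52.4 CPM in even numbers. In NOX4-deficient muscle it was 69.5 and 75.7 against 48.4 and 26.6 CPM. Deviations from genotype means keep this difference. Its part in the correlations was not tested.

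*Nox4*, known from endothelial, smooth muscle and connective tissue cells as well as from fibers, did not follow their markers. Its r was -0.17 with the summed level of 10 endothelial markers (exact permutation p = 0.677, adjusted p = 0.774), 0.113 with 10 fibroblast and tendon markers (exact permutation p = 0.806, adjusted p = 0.806) and -0.38 with 8 smooth muscle and pericyte markers (exact permutation p = 0.335, adjusted p = 0.447). The matching rho values were -0.19, 0.333 and -0.33 (exact permutation p = 0.665, 0.428 and 0.428, adjusted p = 0.665, 0.489 and 0.489). Without the 2 libraries farthest from the median of each sum, r was -0.43, 0.462 and -0.22. The endothelial sum ran from 270 to 319 CPM in control and from 301 to 338 CPM in NOX4-deficient mice. Of the 10 endothelial markers 1 was called, where 6.16% of all rows tested were. It was *Vwf*, for the clotting protein von Willebrand factor, which was higher at 27.7 to 41.6 CPM against 16.2 to 22.3 CPM (log2 fold change 0.74, edgeR adjusted p = 0.0129). The part of endothelial cells in the *Nox4* values was not tested.

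**Figure D4:**
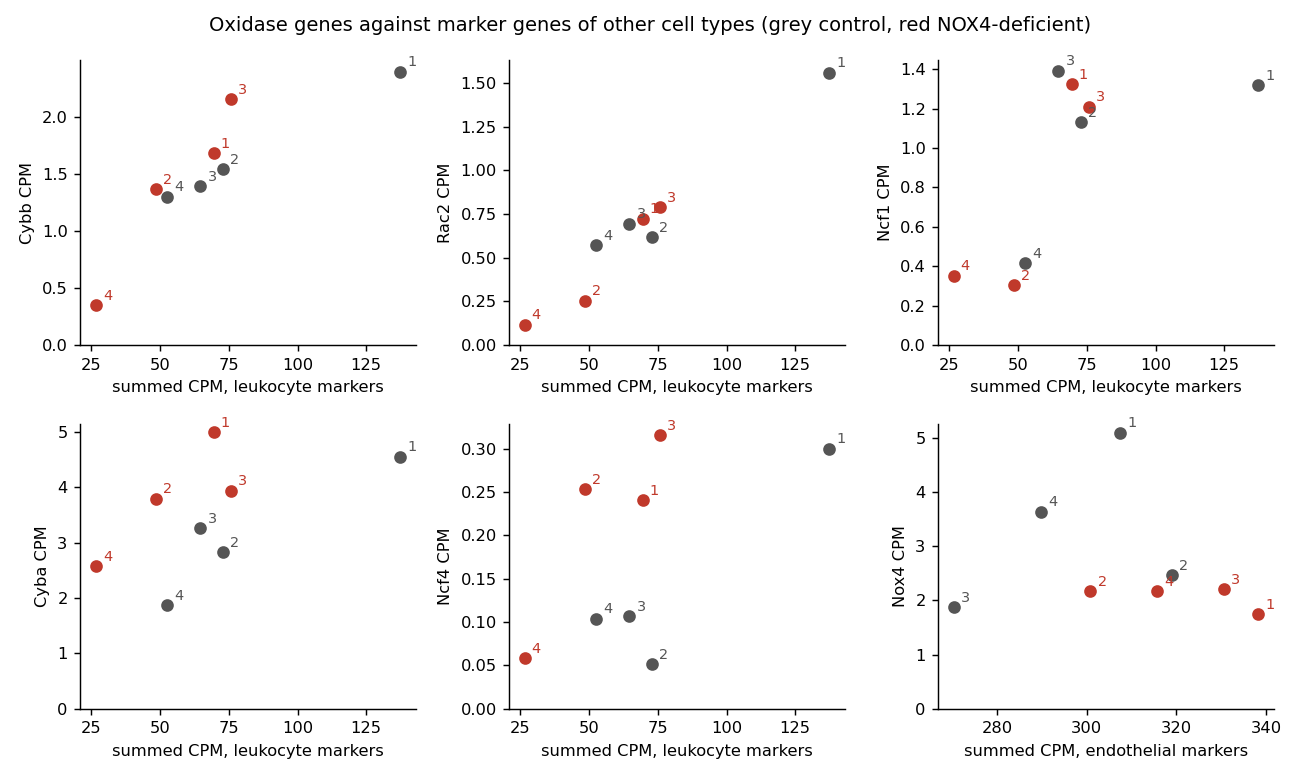
CPM of 5 oxidase genes against the summed CPM of 18 leukocyte markers, and of *Nox4* against the summed CPM of 10 endothelial markers, in each mouse (grey control, red NOX4-deficient, numbers are replicates). *Rac2* and *Cybb* rise with the leukocyte sum from NOX4-deficient replicate 4 at 26.6 CPM to control replicate 1 at 137 CPM, and *Nox4* shows no such order with the endothelial sum.

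Neutrophils carry the phagocyte oxidase in large amounts. Of their markers 1 was called, where 6.16% of all rows tested were. The sum of 6 neutrophil markers was 9.05, 4.68, 6.26 and 2.44 CPM in the controls and 2.29, 1.11, 1.37 and 0.586 CPM in the NOX4-deficient mice, which did not overlap. Of the 3 tested, *S100a9*, for a calcium-binding protein that neutrophils carry in bulk, was called lower (2.82 ± 1.25 against 0.389 ± 0.486 CPM, log2 fold change -2.87, edgeR adjusted p = 0.0286), and its call was lost without control replicate 1, 2 or 3 and without NOX4-deficient replicate 2 or 4 (adjusted p of 0.0577 to 0.0861). The call was also lost without the filter on low counts (edgeR adjusted p = 0.0983), and *S100a9* was not tested where at least 10 counts were required in every sample. The defining markers *Ly6g* and *Mpo* had 0 and 1 count in all libraries together. Blood markers were higher in NOX4-deficient muscle, at 72.3 to 159 CPM against 47.6 to 52.7 CPM, and 2 of the 3 in the table, the globin genes *Hba-a1* and *Hbb-bs*, were called. The part of blood and neutrophils in the values of *Cybb*, *Ncf1*, *Ncf4* and *Rac2* was not tested.

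The wider set of NADPH oxidase genes showed which other oxidases the muscle transcribed. Of 14 further oxidase and partner genes, 5 had enough counts to be tested and 0 were called. With the replicate number as a block, or without NOX4-deficient replicate 2, 1 of them, *Sh3pxd2b*, was called lower (edgeR adjusted p = 0.0469 and 0.0307). *Nox3* and *Noxa1* had 0 counts, which allows up to 3 counts over all libraries together, *Nox1* and *Duoxa2* had 3 counts each, and *Duox2* had 7, over all 8 libraries. *Duoxa1* had 25 counts, *Noxo1* 29, *Duox1* 62 and *Rac3* 64, too few to be tested.

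Among those tested, *Cybc1*, the chaperone needed for the CYBB and CYBA core, was at 2.78 ± 0.236 and 3.37 ± 0.917 CPM (log2 fold change 0.28, edgeR adjusted p = 0.501). The scaffold genes *Sh3pxd2a* and *Sh3pxd2b*, whose TKS proteins can organize NOX enzymes, had opposite signs. *Sh3pxd2a* was at 74.6 ± 7.44 and 98.5 ± 27.3 CPM (log2 fold change 0.40, adjusted p = 0.175) and *Sh3pxd2b* at 5.20 ± 1.10 and 3.22 ± 1.21 CPM (log2 fold change -0.69, adjusted p = 0.130). The endoplasmic reticulum genes *P4hb*, for a disulfide isomerase that binds NOX subunits, and *Canx*, for calnexin, were the most abundant of the list per kb, at 81.4 and 26.2 CPM per kb in control muscle, with log2 fold changes of -0.15 and -0.22 (edgeR adjusted p = 0.336 and 0.173).

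Genes that switch RAC on or off held 2 called genes, with opposite signs. Of 20 genes for RAC regulators and related small GTPases, 19 were tested. Of these 1 was called higher and 1 lower, where 6.16% of all rows tested were called. The median log2 fold change was -0.05. *Tiam1*, an exchange factor that loads RAC with GTP, was at 8.99, 8.44, 9.90 and 4.32 CPM in the controls and at 21.7, 26.8, 23.5 and 26.1 CPM in the NOX4-deficient mice. Every NOX4-deficient mouse was above every control, a log2 fold change of 1.63 (edgeR adjusted p = 9.84e-04, standard error 0.21). Its relative *Tiam2*, also a RAC exchange factor, went the other way, from 10.5, 12.5, 10.9 and 17.6 CPM to 5.78, 6.57, 4.89 and 7.27 CPM. The groups did not overlap, and the difference was -1.07 on the log2 scale (edgeR adjusted p = 0.00621, standard error 0.19). Both calls held with each of the 8 libraries left out in turn. Over all rows tested, the groups did not overlap in 7.2% toward higher and in 8.97% toward lower values in NOX4-deficient muscle. *Vav1*, the exchange factor of blood cells, had 57 counts in all and was not tested.

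*Cdc42*, a close relative of RAC and the most abundant gene of that list per kb, was at 237 to 266 CPM in control and at 191 to 221 CPM in NOX4-deficient mice, without overlap. Of all rows tested, 8.97% were separated in that direction. The log2 fold change of *Cdc42*, -0.30, was near that of *Rac1* and did not pass the test (edgeR adjusted p = 0.0686).

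Among 11 kinases and proteases known to act on p47phox or the oxidase, 10 were tested. Of these 1 was called lower and 0 higher, where 6.16% of all rows tested were called. *Prkcd*, for protein kinase C delta, which phosphorylates p47phox, was at 20.6, 19.5, 17.4 and 27.9 CPM in the controls and at 15.2, 10.8, 9.88 and 8.62 CPM in the NOX4-deficient mice. The groups did not overlap, where 8.97% of all rows tested were separated in that direction. The difference of *Prkcd* was -0.94 on the log2 scale (edgeR adjusted p = 0.0122, standard error 0.19). *Prkca*, for protein kinase C alpha, was at 118 ± 9.91 and 85.0 ± 7.63 CPM (SD, n = 4 each), and its log2 fold change of -0.47 (edgeR adjusted p = 0.0175) was under the fold minimum for a call. *Prkca* was called lower without control replicate 1 (-0.50, edgeR adjusted p = 0.0303) and without NOX4-deficient replicate 2 (-0.53, edgeR adjusted p = 0.0134). Without NOX4-deficient replicate 3 its edgeR adjusted p was 0.0528. *Akt2* was the most abundant of the list per kb, at 77.1 CPM per kb in control muscle, with a log2 fold change of -0.20 (edgeR adjusted p = 0.208).

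Of 8 genes for other oxidant-forming enzymes, 6 were tested and 0 were called. Those with the smallest p were *Xdh*, for xanthine oxidoreductase, at 37.4 ± 4.32 and 27.3 ± 5.56 CPM (log2 fold change -0.45, edgeR adjusted p = 0.0844), and *Aox1*, for aldehyde oxidase, at 21.9 and 16.5 CPM (log2 fold change -0.41, edgeR adjusted p = 0.185). *Maob*, a monoamine oxidase of the mitochondrial outer membrane, was the most abundant per kb of the list without *Ero1a*, for which no length was matched, with a log2 fold change of 0.11 (edgeR adjusted p = 0.815). *Alox5* and *Ptgs2* had 61 and 23 counts and were not tested.

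**Figure D5:**
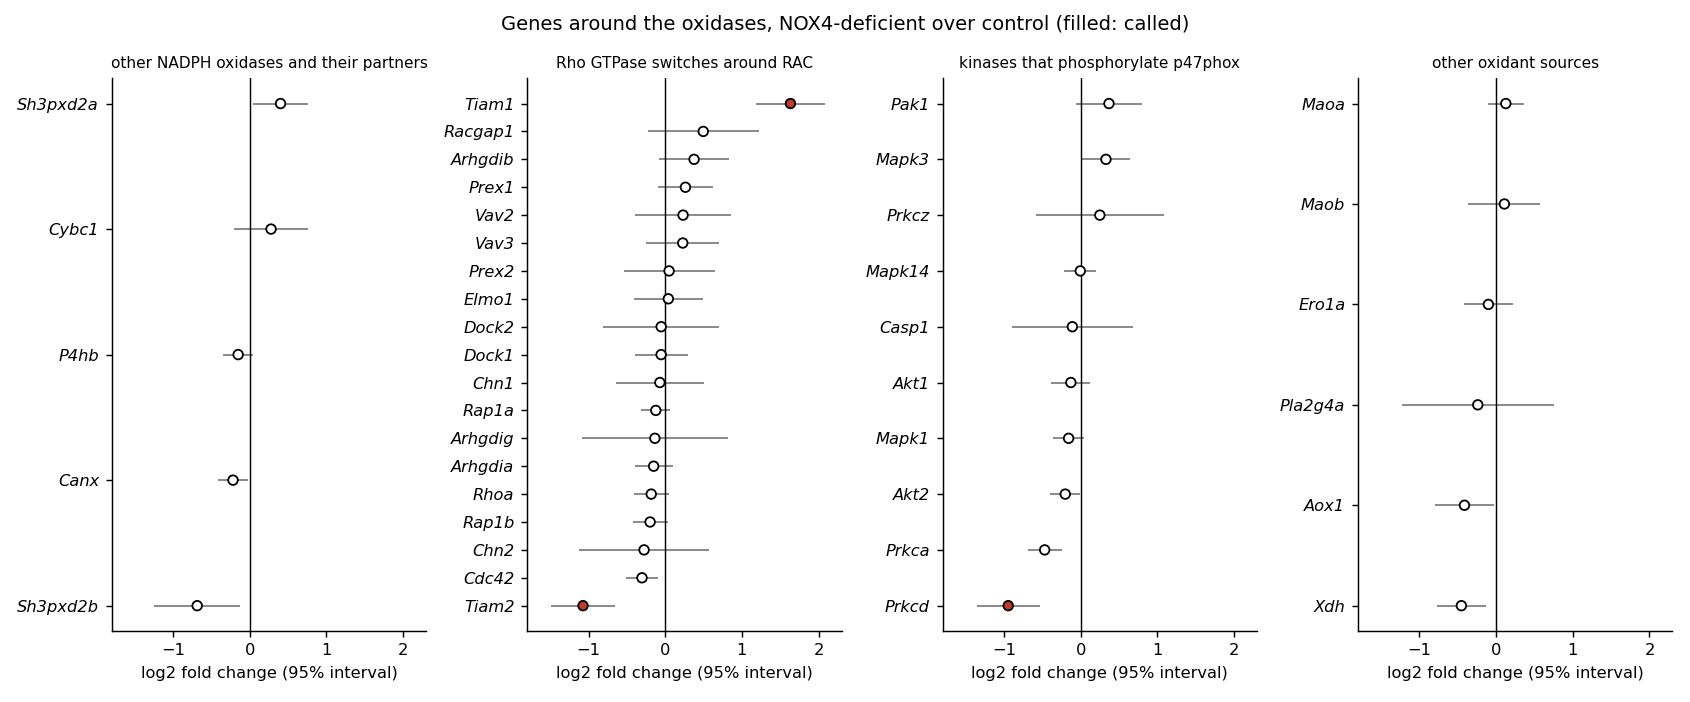
Log2 fold change (horizontal axes, NOX4-deficient over control, 95% intervals) of the tested genes of 4 lists around the oxidases. Filled points are called genes. *Tiam1* (1.63), *Tiam2* (-1.07) and *Prkcd* (-0.94) are filled, and the intervals of most other genes cross 0.

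For the 2 catalytic genes and *Rac1*, the rows with the most similar log2 CPM over the 8 libraries were sought among all rows tested, as a description with no test. Nearest to *Nox4* were *Runx1t1* (r = 0.946), *Mrps18b* (r = 0.931) and *Pla1a* (r = 0.929), and 9 rows had r over 0.9. Nearest to *Cybb* were *Rhno1* (r = 0.977), *Glmp* (r = 0.963) and *Uap1l1* (r = 0.960), with 23 rows over 0.9. Nearest to *Rac1* were *Prob1* (r = 0.995), *2900026A02Rik* (r = 0.993) and *Ube4a* (r = 0.989), with 285 rows over 0.9. *Ube4a*, for a ubiquitin ligase, had means of 113 CPM in the controls and 56.3 CPM in the NOX4-deficient mice (edgeR adjusted p = 0.0138). *Rac1* rested on 3203 or more counts in each library, and *Nox4* and *Cybb* on 85 or fewer.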

How the data were processed

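Poly(A) RNA of gastrocnemius from 4 control and 4 NOX4-deficient mice was sequenced as unstranded paired-end libraries. The authors deposited raw counts per gene, without normalization. The study's methods name the nf-core RNA-seq workflow, run in Laxy, and the submitters' processing notes name STAR and GRCm39. The annotation and counting settings are not given in the sources used here. All 8 columns matched a sample by name. Replicates differed by more than the sampling noise.

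Genotypes were compared with edgeR 4.0.16 in R 4.3.3 (TMM scaling, filterByExpr, robust glmQLFit and glmQLFTest, genotype as the only term) over all 8 libraries, with Benjamini-Hochberg adjustment over 12725 rows. A call required an adjusted p below 0.05 and a log2 fold change beyond 0.5 in either direction. The fit was tested on simulated data. Single values were compared by exact two-sided permutation tests.

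Alternatives were DESeq2 1.42.0, pydeseq2 0.5.4, other scalings, filters and thresholds, the replicate number as a block, and each replicate left out. Transcript lengths and overlaps came from GENCODE M21, which is built on GRCm38, so that no coordinates are given. Genes were named by these rules: all 8 members, each called gene of the 4 pathway lists and otherwise the 2 with the smallest p and the most abundant per kb, genes with too few counts, defining markers, and the 3 nearest rows for *Nox4*, *Cybb* and *Rac1*. Further genes of these lists are named as background to the oxidases. *S100a9*, *Vwf*, *Hba-a1*, *Hbb-bs*, *Lyz2* and *Cd14* were named after their values were seen, since they make up small counts of calls. Beside the listed genes, 1 further oxidase gene is not reported here. The members and lists were chosen with earlier results of these data known. Lists of adipocyte (6 genes, 0 called) and Schwann cell and nerve markers (5 genes, 0 called) were also read.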

Additional observations from a re-analysis of the deposited data

Results flagged for a closer look

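In 4 of 36 groups of 4 libraries, the highest or lowest library stood apart from the others, measured as its gap to the nearest other library over the whole range of the group, by Dixon's test at the 95% level. Chance gives about 1 in 20, or 1.8 groups. *Nox4* in NOX4-deficient mice was lowest in replicate 1, at 1.74 CPM against 2.17 to 2.21 CPM in the others (gap over range 0.918). The 95% counting interval of that library, 1.17 to 2.51 CPM, holds the values of the other 3. *Rac2* in control mice was highest in replicate 1, at 1.56 CPM against 0.572 to 0.696 CPM (gap over range 0.875). The same control mouse had the highest sum of adipocyte markers, 297 CPM against 162 to 181 CPM (gap over range 0.862). The sum of muscle fiber markers was highest in control replicate 3, at 162021 CPM against 129650 to 134354 CPM (gap over range 0.855).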

How the results depend on the processing

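None of the 7 members tested was called under any of the alternatives run, and the largest movements came from single mice. Over all rows the number of genes called was 784 in the main fit (443 lower, 341 higher). By DESeq2 in R it was 1018 (579 lower, 439 higher), and by pydeseq2 1009 (576 lower, 433 higher). It was 252 at an adjusted p under 0.01 (156 lower, 96 higher). With each replicate left out in turn it ran from 499 to 712 (295 to 425 lower, 204 to 317 higher). With the replicate number as a block, 933 genes were called (543 lower, 390 higher), and the log2 fold change was -0.57 for *Nox4* (adjusted p = 0.253) and -0.92 for *Rac2* (adjusted p = 0.231). The numbers were not taken to pair the mice, since nothing in the labels says that they do. The correlations of the deviations of same-numbered libraries were 0.254, 0.166, 0.0640 and 0.0461. Those of libraries with different numbers ran from -0.231 to 0.218. These values cannot decide whether the numbers pair mice or mark a shared handling. Adding odd against even replicate numbers to the model, chosen after the data were seen, gave 962 genes and a log2 fold change of -0.25 for *Rac1* (adjusted p = 0.0827). The length over all annotated exons was also chosen after the data were seen. Leaving out each replicate moved *Nox4* between -0.82 and -0.36, *Cybb* between -0.52 and 0.0867, *Cyba* between 0.11 and 0.53, *Ncf1* between -0.75 and -0.14, *Rac1* between -0.29 and -0.18, *Rac2* between -1.22 and -0.42 and *Poldip2* between 0.02 and 0.12 in log2 fold change, and the *Nox4* difference between -1.66 and -0.587 CPM. Among the members only *Cybb* changed sign in these fits, to 0.0867 without NOX4-deficient replicate 4.

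The correlation of *Cybb* with the leukocyte sum stayed between 0.866 and 0.924 with each library left out, and it lost its call in 5 of these, with an adjusted p of up to 0.0683. That of *Cyba* was 0.872 on deviations from the group means, which passed, and that of *Ncf1* was 0.761 on the log2 scale and 0.767 with the mean log2 of the markers, which also passed, and ran from 0.565 to 0.831 with each library left out. The correlation of *Nox4* with endothelial markers became 0.0214 with library size only, 0.251 on deviations and between -0.55 and 0.00749 with a library left out. With fibroblast markers it became -0.16 with the mean log2 and ran from -0.40 to 0.404 with a library left out, and with smooth muscle markers it became 0.150 with the mean log2. The cause was not tested. *Cybb*, *Ncf1*, *Ncf4* and *Rac2* were at 41 counts or fewer per library, and for *Cybb*, *Ncf1* and *Rac2* the variance between mice was 2.68 to 7.33 times that from counting.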
